A study of Mus musculus with 6 samples.

Results

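Cytochrome P450 genes were followed in the peritoneum, the lining of the abdomen with its fat, in a mouse model of encapsulating peritoneal sclerosis (EPS) and in saline-injected mice. A row of the count table was taken as a P450 gene where its symbol was Cyp followed by a family number, a subfamily letter and a gene number, leaving out Cyp51, and 37 of the 14943 symbols met this rule. All mice were wild-type C57BL/6J males aged 8 weeks. The 3 EPS libraries came from mice given, into the abdomen, daily peritoneal dialysis solution (PDS, 4.25%, 100 mL/kg) together with SHS (0.3 mL; the labels do not spell it out), and lipopolysaccharide, a bacterial endotoxin, at 4 mg/kg every week. The 3 control libraries came from mice that received saline in the same volume. Tissue was collected in week 3. As these agents were given together, their single effects cannot be told apart. The labels do not say whether each library is 1 animal, so p-values measure the spread between these libraries, which may be technical.

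P450 enzymes carry a haem group and insert an oxygen atom into their substrate, with electrons passed on from NADPH by a reductase in the endoplasmic reticulum or by ferredoxin in mitochondria. Families 1 to 3 are best known for oxidising drugs and other foreign compounds, family 4 for the hydroxylation of fatty acids and leukotrienes, and families 7, 8, 27, 39 and 46 for turning cholesterol into oxysterols and bile acids. Family 26 degrades retinoic acid, and Cyp27b1 makes the active form of vitamin D. The liver is the main site of many of these enzymes, while Cyp1b1, Cyp26b1 and several family 4 genes are known from tissues outside the liver.

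The promoters of the 2 family 1 genes, Cyp1a1 and Cyp1b1, are shown because these genes moved in opposite directions in EPS although both are classical targets of the aryl hydrocarbon receptor (AHR). Each RefSeq window of GRCm38.p6 runs from 250 bases before the transcription start to 50 bases after it, 5′ to 3′ on the gene's strand, and capitals mark the core letters of the AHR response element, GCGTG on one strand or CACGC on the other. The Cyp1a1 window lies at chr9:57697363-57697662 on the plus strand and the Cyp1b1 window at chr17:79715012-79715311 on the minus strand.
Cyp1a1: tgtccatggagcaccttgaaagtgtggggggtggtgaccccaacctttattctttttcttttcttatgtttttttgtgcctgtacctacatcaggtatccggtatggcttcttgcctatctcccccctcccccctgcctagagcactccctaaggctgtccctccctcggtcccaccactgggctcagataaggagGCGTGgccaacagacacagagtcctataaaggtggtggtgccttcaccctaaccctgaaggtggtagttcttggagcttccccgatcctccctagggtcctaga
Cyp1b1: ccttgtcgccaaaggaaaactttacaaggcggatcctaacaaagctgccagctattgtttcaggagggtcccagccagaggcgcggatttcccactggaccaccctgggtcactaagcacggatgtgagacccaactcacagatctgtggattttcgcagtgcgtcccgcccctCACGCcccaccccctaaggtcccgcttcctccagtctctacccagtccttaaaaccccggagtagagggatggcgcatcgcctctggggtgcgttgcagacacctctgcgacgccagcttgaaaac
Each window held 1 match, in opposite orientations. Windows were found for 31 of the 37 P450 genes, some with more than 1 start, and 9 of these 35 windows held a match, against 32.4% of all 32851 RefSeq windows and 47.2% of the 14974 windows of genes in the table. A match of 5 letters is a description of the sequence and not of binding.

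The libraries held 15419232 to 16651797 counts in EPS and 16092608 to 17684229 in controls. Correlations of log2 values over all tested genes were at least 0.926 within a group and at most 0.801 between groups. Controls 1 and 2 stood closer to each other than to control 3, with a chi-square statistic per gene of 4.41 against 15.9 and 16.4. EPS 1 stood apart by pancreatic acinar genes, whose 10 markers summed to 138204, 149 and 468 CPM in EPS 1 to 3, against 3441, 3266 and 294 CPM in controls 1 to 3. CPM, the standard unit of read counts per library size, was computed here on sizes scaled by TMM factors. Hepatocyte markers were near the floor, with sums of 24.9, 3.76 and 3.17 CPM in EPS 1 to 3 against 12.7, 13.8 and 8.995 CPM in controls 1 to 3 over 9 measured genes. Mesothelial markers, the check of the labelled tissue, were present in all 6 libraries at sums of 55.4 to 226 CPM in EPS and 144 to 221 CPM in controls, and none of the 7 passed the test. Without EPS 3, 2 were called higher and 1 lower, with unscaled library totals 1 was called higher, and with a replicate block 1 lower.

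Of the 37 P450 genes, 23 had enough reads to be tested, 5 of them rose in EPS, 11 fell and 7 did not pass an adjusted p of 0.05 (edgeR's quasi-likelihood test, Benjamini-Hochberg adjustment over 13980 genes). The 5 that rose were Cyp4f18, Cyp8b1, Cyp7b1, Cyp1b1 and Cyp4f16. Of these, Cyp8b1 cleared the low-count filter through its EPS libraries alone. The 11 that fell were Cyp1a1, Cyp2e1, Cyp2u1, Cyp26b1, Cyp2j9, Cyp4f17, Cyp2d22, Cyp2j6, Cyp4v3, Cyp27a1 and Cyp4f13. The called share was 69.6% of the tested P450 genes against 59.6% of all tested genes. By direction, 21.7% were higher and 47.8% lower in EPS, against 29.2% and 30.4% of all tested genes. The median log2 fold change, EPS over control, was -0.70 over the tested P450 genes and -0.02 over all tested genes. Expression did not overlap between the groups for 17 of the 23 genes, 73.9%, against 68.5% of all tested genes. With unscaled library totals the median of all genes shifted by 0.42 on the log2 scale, 72.2% rather than 49.1% of all called genes were higher in EPS, and the P450 split was 6 higher and 8 lower.

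**Figure D1:**
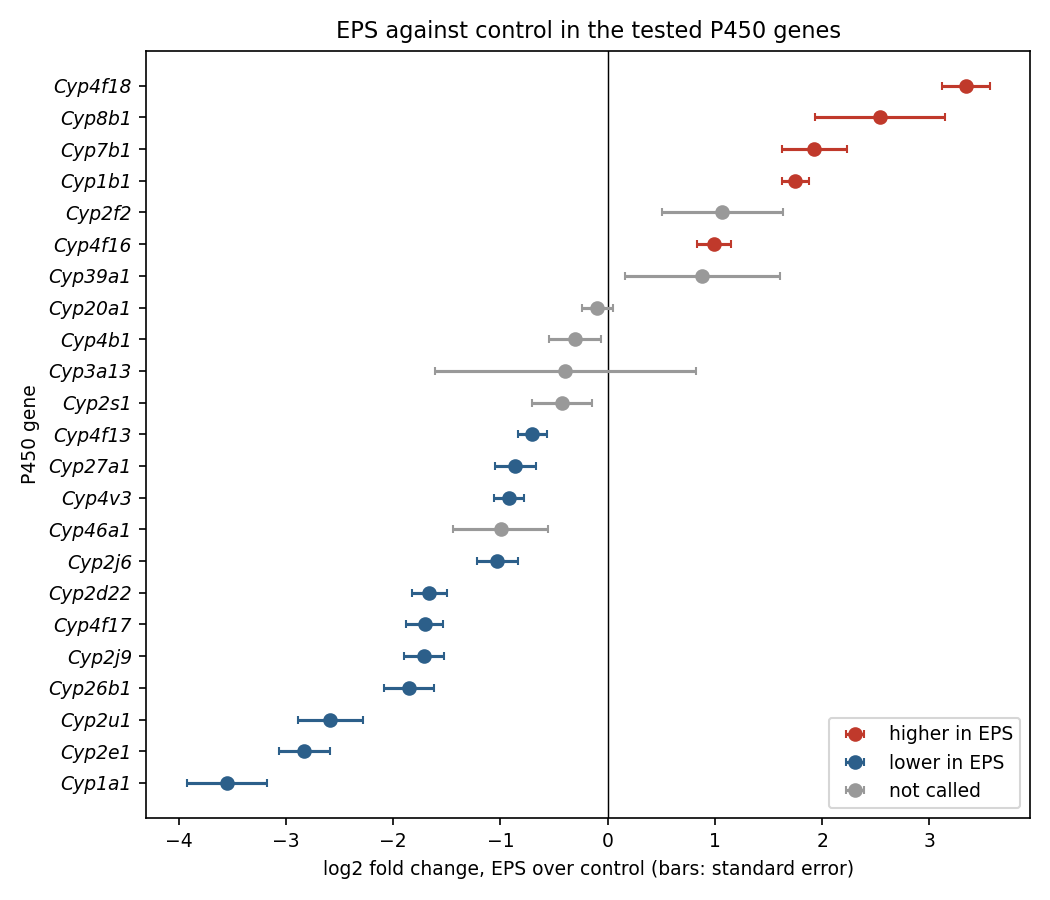
Log2 fold change, EPS over control (horizontal axis), of the 23 tested P450 genes (vertical axis), with bars for the standard error and colours for genes called higher, called lower or not called at an adjusted p of 0.05. The 5 called higher reach 3.34 for Cyp4f18, and the 11 called lower reach -3.55 for Cyp1a1. With unscaled library totals the points of Cyp2s1, Cyp4b1 and Cyp20a1 change sign.

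Of all tested genes 29.2% were called higher and 30.4% lower, and the counts by family are too small to be read against these shares. By family, the CYP2 genes had no member called higher. Of the 15 CYP2 genes, 7 were tested, 5 fell and 2 did not pass. The 9 CYP4 genes had 6 tested, with 2 that rose, 3 that fell and 1 that did not pass. The 2 CYP1 genes parted, 1 up and 1 down. The only CYP7 and CYP8 genes measured both rose, the CYP8 gene with the filter limit given above. The CYP26 gene fell, 1 of the 2 CYP27 genes fell and the other was untested. Among 3 CYP3 genes the 1 tested did not pass, and neither did the single CYP20, CYP39 and CYP46 genes. Cyp26a1 and Cyp24a1, which also degrade retinoic acid and vitamin D, and the steroid-making Cyp11a1, Cyp17a1, Cyp19a1 and Cyp21a1 were not among the symbols of the count table.

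Summed over the 37 genes, P450 transcripts came to 955, 1160 and 855 CPM in EPS 1 to 3, against 4243, 4666 and 4035 CPM in controls 1 to 3. All EPS libraries lay below all controls, with means of 989.7 ± 156 CPM in EPS and 4315 ± 321 CPM in controls (SD, n = 3 each), a ratio of 4.36 in favour of controls. Most of this gap was a single gene. Without Cyp2e1 the sums were 478, 457 and 468 CPM in EPS against 586, 596 and 639 CPM in controls, a ratio of 1.30 in favour of controls, and the groups still did not overlap.

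Cyp2e1 (chr7:140763739-140774987), which oxidises ethanol, acetone and other small molecules, fell most in absolute terms, in CPM and per length. It stood at 476, 702 and 386 CPM in EPS 1 to 3, against 3657, 4069.5 and 3396 CPM in controls 1 to 3. The highest EPS library lay well under the lowest control. The log2 fold change was -2.83 ± 0.24 (SE), 7.11-fold lower in EPS, with an adjusted p of 2.88e-05 by edgeR's quasi-likelihood test. Its share of all P450 counts was 49.9%, 60.6% and 45.2% in EPS (exact 95% Clopper-Pearson intervals 49.1% to 50.7%, 60.0% to 61.2% and 44.5% to 46.0%). In controls the share was 86.2%, 87.2% and 84.2% (85.9% to 86.5%, 87.0% to 87.5% and 83.9% to 84.5%). These intervals cover counting error only.

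Adipocyte markers moved with Cyp2e1, which in mice is also known from fat. All 6 markers fell, with a median log2 fold change of -3.47 and sums of 1079 to 1640 CPM in EPS against 14984 to 15700 CPM in controls. The ratio of Cyp2e1 to the marker sum was 0.441, 0.429 and 0.236 in EPS 1 to 3 and 0.236, 0.259 and 0.227 in controls 1 to 3, so that EPS 3 lay within the control range and EPS 1 and 2 above it. In bulk tissue fewer cells of a type and less RNA per cell cannot be told apart, and the part of the fat markers in these results was not tested.

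**Figure D2:**
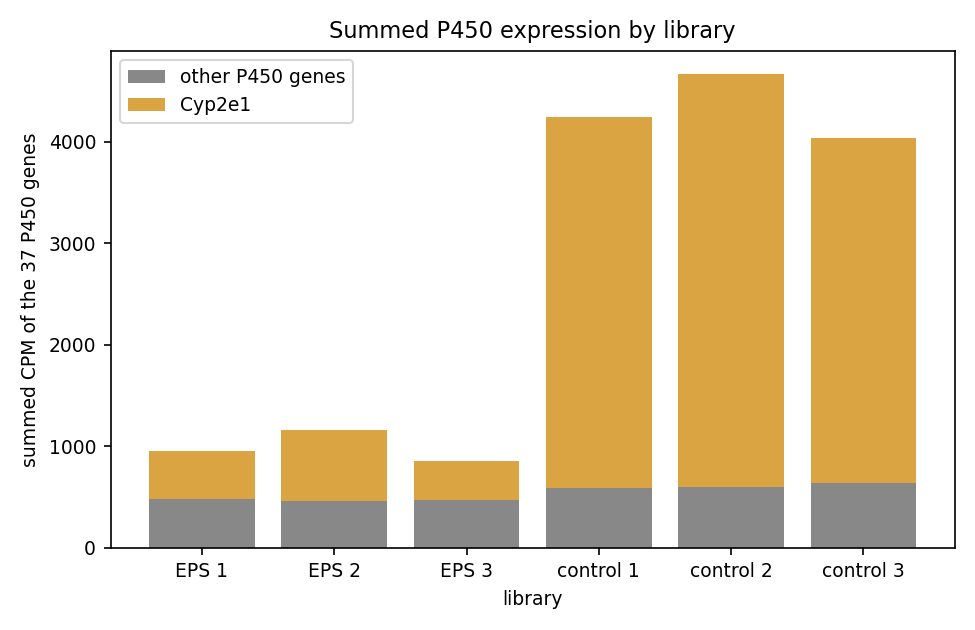
Summed expression of the 37 P450 genes in CPM (vertical axis, from 0) in each library (horizontal axis), split into Cyp2e1 and the other 36 genes. The EPS bars reach 855 to 1160 CPM and the control bars 4035 to 4666 CPM, while the other genes sum to 457 to 478 CPM in EPS and 586 to 639 CPM in controls.

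The order of the genes by RPKM, the CPM divided by exon length in kilobases and the scale on which levels of different genes are compared, began with Cyp2e1 and Cyp4b1 in both groups. In EPS libraries Cyp2e1 averaged 242 ± 75.4 RPKM, Cyp4b1 33.6 ± 12.7, Cyp1b1 23.3 ± 2.78, Cyp4f18 15.0 ± 2.19 and Cyp27a1 12.1 ± 2.86 RPKM (SD, n = 3). In control libraries Cyp2e1 averaged 1718 ± 157 RPKM, Cyp4b1 41.6 ± 1.47, Cyp2d22 29.6 ± 6.36, Cyp27a1 21.99 ± 3.23, Cyp4v3 17.6 ± 2.73 and Cyp1a1 15.1 ± 4.05 RPKM. Cyp1b1 and Cyp4f18 thus followed Cyp4b1 in EPS, places held by Cyp2d22 and Cyp27a1 in controls. In EPS the neighbours Cyp4b1 and Cyp1b1, and Cyp4f18 and Cyp27a1, lay within each other's spread, as did Cyp2d22 and Cyp27a1, Cyp27a1 and Cyp4v3, and Cyp4v3 and Cyp1a1 in controls.

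Among the genes for foreign compounds, Cyp1a1 and Cyp1b1 changed places. Cyp1a1 (chr9:57687928-57703824) oxidises polycyclic aromatic hydrocarbons and is the textbook AHR-induced gene. Its expression was 2.91, 2.21 and 5.60 CPM in EPS 1 to 3 against 34.0, 37.4 and 55.0 CPM in controls 1 to 3, with no overlap. It fell by 3.55 ± 0.37 on the log2 scale, 11.7-fold, with an adjusted p of 1.50e-04 by edgeR's quasi-likelihood test. Cyp1b1 (chr17:79701537-79715061), which acts on hydrocarbons, oestrogens and retinoids and is known from mesenchymal cells, had 153, 136 and 120.4 CPM in EPS 1 to 3 against 36.9, 41.5 and 43.0 CPM in controls 1 to 3. Every EPS library was far above every control, a rise of 3.37-fold (log2 fold change 1.75 ± 0.12, adjusted p = 1.22e-05 by edgeR). Per length, Cyp1b1 stood above Cyp1a1 in EPS, at 23.3 ± 2.78 RPKM beside 1.28 ± 0.642 RPKM, and below it in controls, at 6.93 ± 0.542 RPKM beside 15.1 ± 4.05 RPKM (SD, n = 3 each). The ratio of Cyp1b1 to Cyp1a1 reads was 52.5, 61.4 and 21.5 in EPS 1 to 3 against 1.09, 1.11 and 0.781 in controls 1 to 3. Of 4 fibroblast markers, Col1a1 and Lum rose and Pdgfra and Dcn did not pass (3 rose without EPS 3 or with unscaled library totals). Their sums were 2674 to 4829 CPM in EPS against 1491 to 1568 CPM in controls, and their part in the rise of Cyp1b1 was not tested.

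The receptor and its partners did not all follow Cyp1a1 (these 4 genes were chosen after their values were seen). Ahr itself averaged 22.5 ± 0.786 CPM in EPS and 19.3 ± 2.92 CPM in controls (SD, n = 3 each) and did not pass, with an adjusted p of 0.227 by edgeR, though it was called higher with unscaled library totals. Arnt, the partner of the receptor on DNA, averaged 82.5 ± 1.99 CPM in EPS and 81.8 ± 3.86 CPM in controls, with an adjusted p of 0.908. Ahrr, which encodes a repressor of the receptor and is itself an AHR target, rose by 1.56 ± 0.39 on the log2 scale (adjusted p = 0.00880). Tiparp, another AHR target that dampens the receptor, fell by 0.83 ± 0.16 (adjusted p = 0.00225), a call lost with unscaled library totals.

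Cyp2d22 (chr15:82370527-82380260), a mouse gene of the subfamily that in humans metabolises many drugs, had 40.1, 36.3 and 33.4 CPM in EPS 1 to 3 against 98.1, 105 and 144 CPM in controls 1 to 3. It fell 3.17-fold without overlap (log2 fold change -1.66 ± 0.16, adjusted p = 6.44e-05 by edgeR). The other tested genes of this group did not pass. Cyp2s1, known from epithelia outside the liver, had 4.51 to 8.18 CPM in EPS and 6.35 to 9.86 CPM in controls (adjusted p = 0.225), and its log2 fold change of -0.42 ± 0.28 was 0.0023 with unscaled library totals. Cyp2f2, which in the mouse lung activates naphthalene, had 1.04, 4.23 and 1.49 CPM in EPS against 0.857, 1.26 and 1.12 CPM in controls (log2 fold change 1.07 ± 0.57, adjusted p = 0.137). Its value without EPS 2 was 0.24, and it was called higher without EPS 1, at 1.46 (adjusted p = 0.0334), and with unscaled library totals (adjusted p = 0.0408). Cyp3a13 had 23, 1 and 2 reads in EPS against 11, 18 and 2 in controls, so that no direction could be read from it; without EPS 1 it was called lower (adjusted p = 0.0406).

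**Figure D3:**
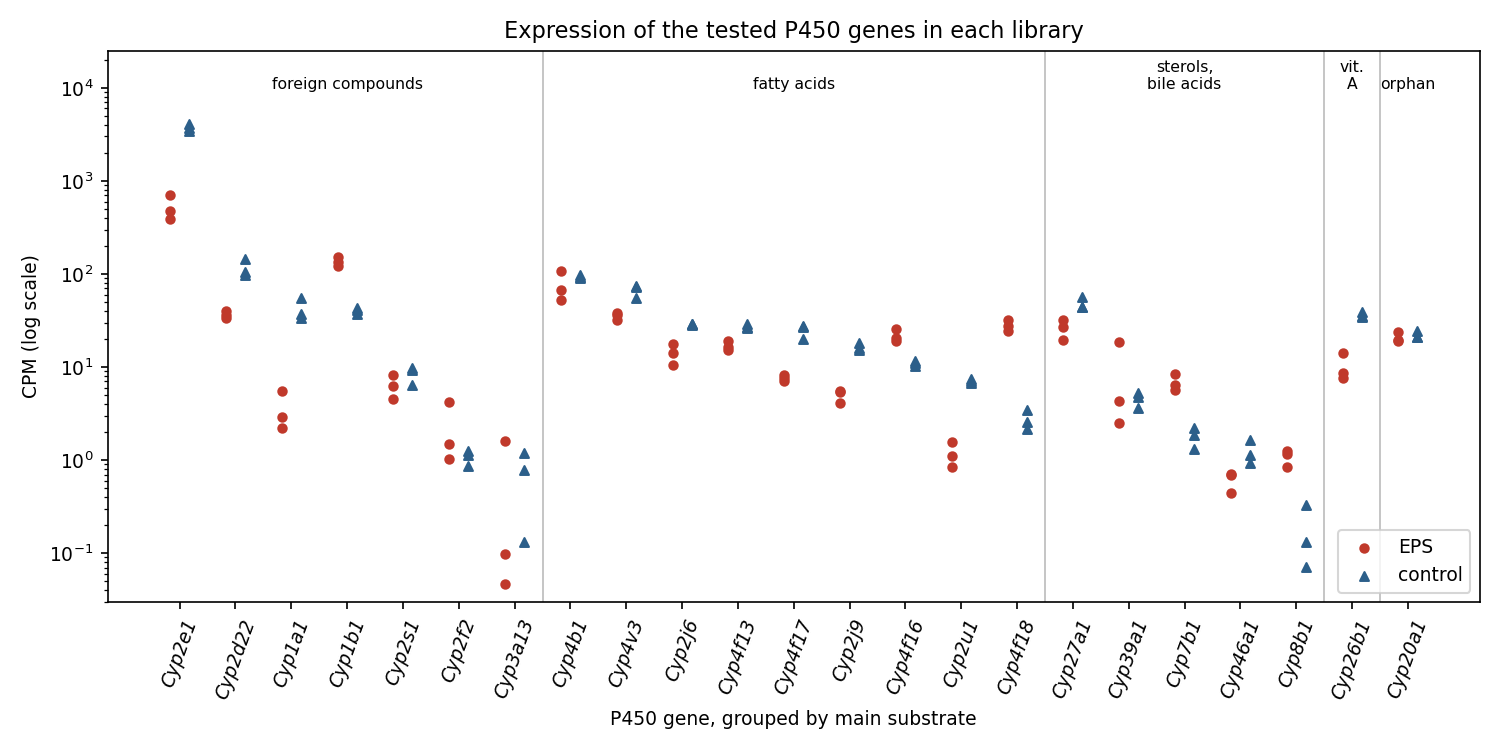
Expression in CPM (vertical axis, log scale) of the 23 tested P450 genes (horizontal axis, grouped by main substrate) in each EPS library (circles) and each control library (triangles). The groups are apart for 17 of the 23 genes, 73.9%, against 68.5% of all tested genes. Cyp4f18 stands at 24.1 to 32.2 CPM in EPS and 2.18 to 3.50 CPM in controls. Cyp39a1 has 1 EPS library at 18.8 CPM, away from the rest.

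Of the 13 genes for fatty acids and eicosanoids, 9 were tested, with 2 that rose, 6 that fell and 1 that did not pass. The shares over all tested genes were 29.2% higher and 30.4% lower. Cyp4f18 (chr8:71988482-72009626), the leukotriene B4 hydroxylase of mouse neutrophils, rose most of all tested P450 genes. It had 27.4, 24.1 and 32.2 CPM in EPS 1 to 3 against 3.50, 2.18 and 2.58 CPM in controls 1 to 3, far apart. The rise was 10.1-fold (log2 fold change 3.34 ± 0.22, adjusted p = 9.53e-06 by edgeR's quasi-likelihood test). Neutrophil markers rose beside it, 5 of 5, with sums of 437, 648 and 1499 CPM in EPS 1 to 3 against 4.28, 4.36 and 3.77 CPM in controls. Macrophage markers also rose, 5 of 5, with sums of 1400 to 1593 CPM in EPS and 287 to 304 CPM in controls, and B cell markers, 4 of 4, with 372 to 603 CPM in EPS and 5.22 to 7.01 CPM in controls. At these control sums, some neutrophil or B cell markers may have cleared the low-count filter through their EPS libraries alone. Neutrophil markers varied more among EPS libraries than Cyp4f18 did, and the part of any of these cells in the result was not tested. An exon of Cyp4f18 overlaps one of Zfp961 on the opposite strand, and without strand marking their shared reads cannot be told apart. The same holds for Cyp2u1, Cyp2s1 and Cyp2f2, whose exons overlap other genes on the opposite strand. Exons of Cyp4v3 overlap Gm45753 on the same strand, so reads between these may be split.

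The other Cyp4f genes lie together on chromosome 17 in the order Cyp4f17, Cyp4f16, Cyp4f37, Cyp4f15, Cyp4f14 and Cyp4f13 over 441.4 kb, and neighbours in this cluster went opposite ways. Cyp4f17 (chr17:32506050-32530143) had 7.14, 8.18 and 7.63 CPM in EPS 1 to 3 against 27.7, 27.2 and 20.1 CPM in controls 1 to 3. It fell 3.26-fold without overlap (log2 fold change -1.71 ± 0.17, adjusted p = 7.38e-05 by edgeR). Cyp4f16 (chr17:32536558-32551798), which begins 6.41 kb beyond it, had 19.3, 20.7 and 25.7 CPM in EPS 1 to 3 against 11.7, 10.3 and 11.0 CPM in controls 1 to 3. It rose 1.99-fold, again without overlap (log2 fold change 0.99 ± 0.16, adjusted p = 8.99e-04). The ratio of Cyp4f16 to Cyp4f17 reads was 2.70, 2.53 and 3.36 in EPS and 0.423, 0.380 and 0.546 in controls, and per length Cyp4f16 stood above Cyp4f17 in EPS (7.13 ± 1.09 beside 2.39 ± 0.162 RPKM) and below it in controls (3.58 ± 0.229 beside 7.81 ± 1.33 RPKM). Cyp4f13 (chr17:32924688-32947402), at the far end, fell to 16.3, 18.9 and 15.2 CPM in EPS against 28.9, 26.5 and 26.7 CPM in controls (log2 fold change -0.70 ± 0.13, adjusted p = 0.00238), a call lost with unscaled library totals. Cyp4f16 shares 16.3% of its exonic 50-base words with Cyp4f37, so reads between these 2 genes may be split.

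The Cyp2j genes encode epoxygenases of arachidonic acid, and both measured members fell. Cyp2j9 (chr4:96568429-96591578) had 5.54, 5.36 and 4.11 CPM in EPS 1 to 3 against 15.1, 18.2 and 16.01 CPM in controls 1 to 3, 3.28-fold lower (log2 fold change -1.71 ± 0.19, adjusted p = 1.10e-04 by edgeR). Its neighbour Cyp2j6 (chr4:96516138-96553661) had 17.6, 14.2 and 10.4 CPM in EPS against 29.3, 28.0 and 28.7 CPM in controls, 2.04-fold lower (-1.03 ± 0.19, adjusted p = 0.00216). Neither gene overlapped between the groups. Cyp2u1 (chr3:131288441-131303227), a hydroxylase of long-chain fatty acids, fell 6.00-fold to 1.11, 1.55 and 0.842 CPM in EPS 1 to 3 against 6.71, 7.47 and 7.01 CPM in controls 1 to 3 (-2.59 ± 0.30, adjusted p = 1.73e-04). Cyp4v3 (chr8:45304944-45333216), the mouse counterpart of human CYP4V2, an omega-hydroxylase of fatty acids, had 36.0, 38.5 and 32.0 CPM in EPS 1 to 3 against 74.0, 72.0 and 55.0 CPM in controls 1 to 3. Its fall was 1.89-fold (-0.92 ± 0.14, adjusted p = 7.26e-04), with an adjusted p of 0.0511 with unscaled library totals.

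Cyp4b1 (chr4:115624725-115647723), which hydroxylates medium-chain fatty acids and some foreign compounds, was second in RPKM in both groups and did not pass the test. It had 52.0, 67.8 and 108 CPM in EPS 1 to 3 against 93.6, 90.5 and 97.2 CPM in controls 1 to 3. EPS 3 lay above every control and the other EPS libraries below, giving a log2 fold change of -0.31 ± 0.24 with an adjusted p of 0.311 by edgeR. Without EPS 3 the gene was called lower at -0.65 (adjusted p = 0.00366), and with unscaled library totals the value was 0.16.

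Of the 6 genes for sterols and bile acids, 2 rose, 1 fell, 2 did not pass and 1 was untested. These are too few to be read against the 29.2% higher and 30.4% lower over all tested genes. Cyp7b1 (chr3:18071950-18243338), which 7-hydroxylates oxysterols such as the product of cholesterol 25-hydroxylase, had 8.38, 5.73 and 6.44 CPM in EPS 1 to 3 against 2.21, 1.85 and 1.32 CPM in controls 1 to 3. The rise was 3.80-fold without overlap (log2 fold change 1.93 ± 0.30, adjusted p = 8.15e-04 by edgeR's quasi-likelihood test). Cyp8b1 (chr9:121914356-121916305), the sterol 12-hydroxylase of cholic acid synthesis, was scarce, with 17, 18 and 25 reads in EPS 1 to 3 against 1, 2 and 5 in controls 1 to 3. It rose by 2.54 ± 0.61 on the log2 scale (adjusted p = 0.00721), 5.82-fold, and 3.31 without control 3. Cyp8b1 cleared the low-count filter through its EPS libraries alone, so it could hardly enter the test without a difference. Cyp27a1 (chr1:74713574-74737892), the mitochondrial sterol 27-hydroxylase, fell to 19.6, 31.9 and 27.2 CPM in EPS 1 to 3 against 43.7, 43.7 and 55.9 CPM in controls 1 to 3. Its log2 fold change was -0.86 ± 0.19 (adjusted p = 0.00532), not called with unscaled library totals (adjusted p = 0.219).

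The remaining sterol hydroxylases gave no call. Cyp39a1 (chr17:43667425-43751431), which acts on 24-hydroxycholesterol, had 18.8, 4.37 and 2.48 CPM in EPS 1 to 3 against 3.64, 4.82 and 5.29 CPM in controls 1 to 3. EPS 1, the library with the high pancreatic acinar genes, was alone above the rest. The log2 fold change was 0.88 ± 0.72 (adjusted p = 0.326 by edgeR) with all libraries and -0.36 without EPS 1. Cyp46a1, the cholesterol 24-hydroxylase known from neurons, had 0.446 to 0.705 CPM in EPS and 0.926 to 1.64 CPM in controls, apart but with an adjusted p of 0.0851.

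Retinoic acid and vitamin D were represented by a gene each. Cyp26b1 (chr6:84571414-84593908), which degrades retinoic acid outside the liver, had 14.2, 7.56 and 8.62 CPM in EPS 1 to 3 against 35.8, 39.0 and 34.5 CPM in controls 1 to 3. It fell 3.61-fold with no overlap (log2 fold change -1.85 ± 0.24, adjusted p = 2.81e-04 by edgeR). Cyp27b1 (chr10:127048250-127053006), the vitamin D 1-hydroxylase, had 9, 3 and 3 reads in EPS against 0, 1 and 4 in controls, too few to test and overlapping. Cyp20a1 (chr1:60343323-60388060), an orphan P450 with no settled substrate, had 23.9, 19.4 and 19.2 CPM in EPS 1 to 3 against 21.2, 20.9 and 24.7 CPM in controls 1 to 3. These ranges overlapped (log2 fold change -0.10 ± 0.15, adjusted p = 0.588), and the value was 0.31 with unscaled library totals.

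The 14 untested genes summed to 63, 21 and 26 reads in EPS 1 to 3 against 93, 95 and 25 reads in controls 1 to 3, and most are genes of liver or intestine. Controls 1 and 2 carried all of the reads of Cyp3a11, the main drug-metabolising CYP3A of mouse liver, with 0 reads in each EPS library against 24, 19 and 0 in controls 1 to 3. Cyp2c70, which makes muricholic acids in mouse liver, had 0 reads in each EPS library against 19, 13 and 5 in controls. Against a floor of 3 reads over the EPS group, Cyp3a11 was 18.1-fold lower in EPS and Cyp2c70 15.6-fold lower. Such folds leave out the counting error of the control reads and are not lower bounds. Cyp3a25 likewise had 0 reads in EPS against 3, 9 and 0 in controls, 5.05-fold against this floor. Cyp2c66 had 4 reads, all in control 1, 1.68-fold against this floor and too few to read a direction. Without the low-count filter neither passed edgeR's quasi-likelihood test (adjusted p = 0.0844 for Cyp3a25 and 0.242 for Cyp2c66). Cyp2d26 had 2, 0 and 0 reads in EPS against 10, 8 and 1 in controls, a control to EPS ratio of 12 with an exact 95% counting interval of 2.89 to 106. This interval pools the reads of each group and leaves out the spread between libraries. Without the low-count filter Cyp2d26 did not pass edgeR's quasi-likelihood test either (adjusted p = 0.0809).

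The liver and gut markers stood at the same scale as these reads. Of 9 measured hepatocyte markers 3 were tested and 2 of them, Alb and Serpina1a, fell. These counts moved with the libraries, to 1 lower and 1 higher without control 1 or control 2, 2 lower and 1 higher without control 3, 3 lower without EPS 1, and 3 lower and 1 higher without EPS 3. Apoa1 and Cps1 had no read in any EPS library and Hpx none in any control. Apoa1 had 0 reads in each EPS library against 39, 43 and 3 in controls 1 to 3, highest in the controls that held Cyp3a11. Controls 1 and 2 were also the controls with more pancreatic acinar reads, at marker sums of 3441 and 3266 CPM against 294 CPM in control 3. Alb was present in all controls, with 13, 1 and 0 reads in EPS 1 to 3 against 28, 50 and 44 in controls 1 to 3. The intestinal marker Fabp2 had 0 reads in each EPS library against 14, 9 and 0 in controls 1 to 3, and the intestinal list summed to 30.9, 8.55 and 6.59 CPM in EPS against 27.7, 26.2 and 26.5 CPM in controls. The part of liver, gut or pancreas RNA in the reads of these genes was not tested.

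Cyp4f14, a hydroxylase of leukotriene B4 in mouse liver and gut, followed the same controls, with 8, 0 and 0 reads in EPS 1 to 3 against 20, 19 and 1 in controls 1 to 3. EPS 1 had reads of its own: Cyp4f15 had 18 there and 0 in every other library. Against a floor of 3 reads over the controls it was 4.75-fold higher in the EPS group, by that library alone. The hepatocyte marker Ttr had 64, 0 and 0 reads in EPS 1 to 3 against 0, 1 and 0 in controls 1 to 3, and Fga had 178, 0 and 1 against 0, 2 and 0. Alb and Apoa1 went the other way, with fewer reads in EPS 1 than in any control, as given above. EPS 1 was also the library with the high pancreatic acinar genes, and the source of its reads was not tested. Cyp4f37 was the exception among the sparse genes, with reads in every EPS library, 11, 8 and 18, and 0 in each control, 9.76-fold higher against the same floor. It shares 18.9% of its exonic 50-base words with Cyp4f16, which also rose, so these reads may be divided between the pair. The remaining sparse genes had no more than 11 reads in any library. Cyp2c23, an epoxygenase known from kidney, had 2 to 11 reads in EPS and 4 to 11 in controls. Cyp2b10 had 1 to 3 reads in EPS and 3 to 5 in controls, and Cyp2c29, Cyp2c55 and Cyp2c65 had at most 2 reads in an EPS library and 6 in a control. Without the low-count filter Cyp2c70 (adjusted p = 0.00741), Cyp3a11 (0.0425) and Cyp4f37 (0.00826) passed edgeR's quasi-likelihood test.

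**Figure D4:**
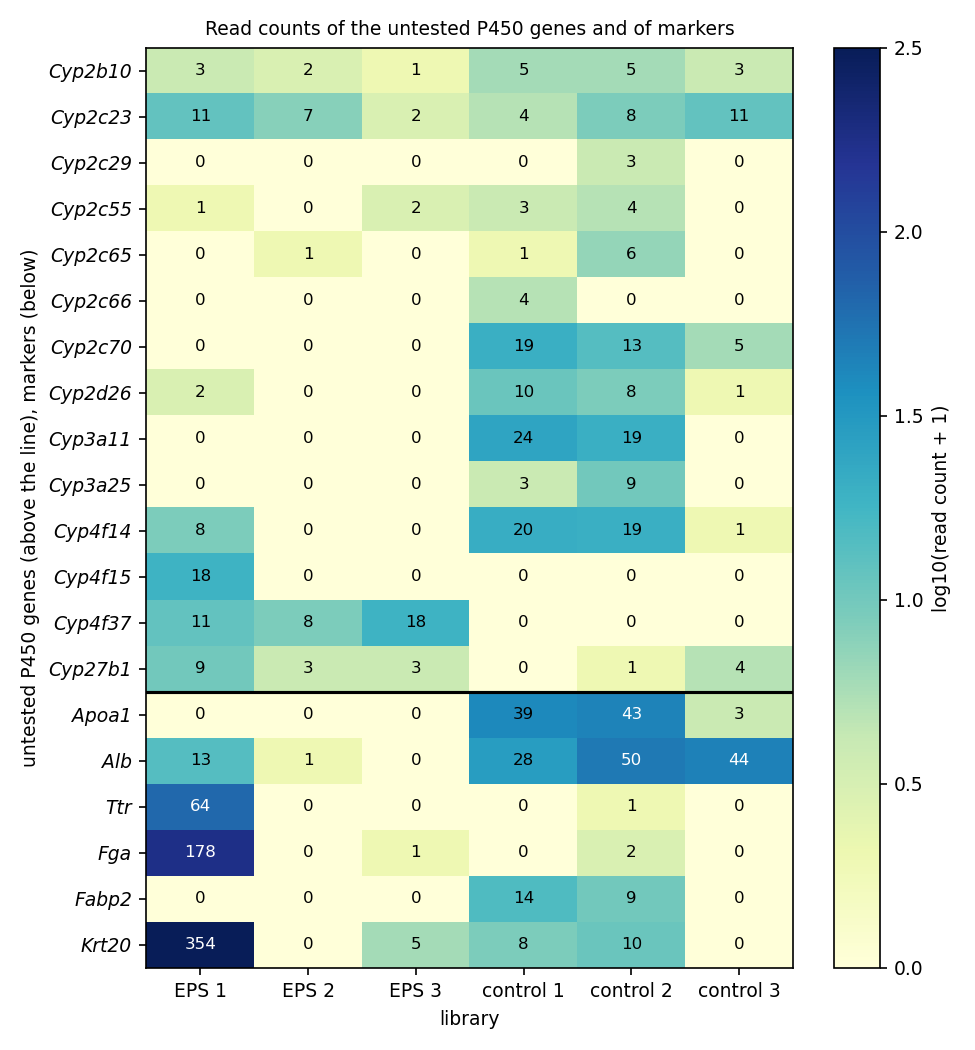
Read counts of the 14 untested P450 genes (rows above the line) and of 6 liver or gut markers (rows below it) in each library (columns), coloured by log10 of the count plus 1, with the count in each cell. Cyp3a11 has 24 and 19 reads in controls 1 and 2 and 0 in every EPS library, beside Apoa1 with 39 and 43 reads in controls 1 and 2.

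P450 enzymes depend on redox partners and on haem. Of all tested genes 30.4% were called lower and 29.2% higher in EPS, the background for the counts of every list of related genes given here. Of 9 redox partner genes tested, 7 fell, none rose and 2, Cyb5r1 and Fdxr, were not called, and the median log2 fold change was -1.33 against -0.02 over all tested genes. Por, the reductase that feeds electrons to microsomal P450 enzymes and chosen after its value was seen, averaged 207 ± 26.0 CPM in EPS and 522 ± 31.0 CPM in controls (-1.33 ± 0.13, adjusted p = 5.83e-05 by edgeR). Cyb5a, the cytochrome b5 that can supply the second electron, fell by 1.74 ± 0.12, Pgrmc2, a haem-binding membrane protein, by 1.62 ± 0.09 and Cyb5r3, a cytochrome b5 reductase, by 1.29 ± 0.12 on the log2 scale. Of 10 haem synthesis genes, 8 fell, none rose and 2, Cpox and Slc25a38, were not called, and the median was -0.97. With unscaled library totals 5 fell and 1 rose, and 1 also rose with RLE or upper-quartile factors, with DESeq2 and without EPS 2. Uros fell by 1.49 ± 0.13, Fech, which inserts the iron, by 1.19 ± 0.11 and Urod by 1.13 ± 0.10. Alas1, the first and regulated step, fell by 0.86 ± 0.12, a call lost with unscaled library totals (adjusted p = 0.101).

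The enzymes that work beside P450 enzymes on foreign compounds fell as a majority. Of 27 tested conjugating enzymes, 19 fell, 1 rose and 7 were not called, and the median log2 fold change was -1.65. With unscaled library totals 16 fell and 2 rose, with a median of -1.22. Mgst3 and Mgst1, microsomal glutathione transferases, fell by 2.92 ± 0.10 and 2.17 ± 0.11, and the sulfotransferase Sult1a1 by 2.92 ± 0.15. Of 18 other oxidases and hydrolases, 13 fell, 2 rose and 3 were not called, and the median was -1.12. With unscaled library totals 10 fell and 2 rose, with a median of -0.71. The number that rose was 1 without control 1, control 2, EPS 1 or EPS 2, with controls 1 and 2 averaged, with limma-voom and with a replicate block. The flavin monooxygenase Fmo1 averaged 81.8 ± 13.7 CPM in EPS and 546 ± 18.8 CPM in controls, and the aldehyde oxidase Aox1 15.8 ± 3.41 CPM in EPS and 120.1 ± 1.81 CPM in controls. The carboxylesterase Ces1f fell by 2.78 ± 0.15. Adipocyte markers fell in the same libraries, as given above, and their part in these counts was not tested.

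Receptors that regulate P450 genes were mixed, with 13 tested, 1 that rose, 6 that fell and 6 that did not pass (2 rose without EPS 2, EPS 3 or control 3 and with RLE or upper-quartile factors, 3 rose with DESeq2, and 5 rose and 2 fell with unscaled library totals, and their median log2 fold change was 0.11 there and -0.34 with TMM). Rxrg fell by 1.82 ± 0.18 on the log2 scale, Rxra by 0.82 ± 0.10 and the oxysterol receptor gene Nr1h3 by 0.58 ± 0.10, of which the Rxra and Nr1h3 calls were lost with unscaled library totals (adjusted p = 0.135 and 0.446).

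Around Cyp26b1, 14 retinoid genes were tested, of which 6 rose, 5 fell and 3 did not pass. Lrat, which esterifies retinol for storage, averaged 8.64 ± 2.75 CPM in EPS and 0.0899 ± 0.0367 CPM in controls (6.47 ± 0.47, adjusted p = 1.49e-05 by edgeR), while the retinol uptake receptor Stra6 averaged 16.6 ± 4.08 CPM in EPS and 1.10 ± 0.302 CPM in controls. With 1, 2 and 1 reads in controls 1 to 3, Lrat cleared the low-count filter through its EPS libraries alone. Aldh1a2, which makes retinoic acid and was chosen after its value was seen, rose by 1.30 ± 0.23 (adjusted p = 0.00176 by edgeR). Its relatives Aldh1a1 and Aldh1a3, chosen in the same way, did not rise. Aldh1a1 averaged 50.7 ± 24.1 CPM in EPS and 187 ± 10.7 CPM in controls. It fell by 1.89 ± 0.34 (adjusted p = 0.00290), and Aldh1a3 was not called (adjusted p = 0.792). Cyp26b1, which removes retinoic acid, fell. Retsat, which saturates retinol, fell by 1.94 ± 0.11. Rbp4, chosen after its value was seen, had the largest fall among the tested retinoid genes. It averaged 15.4 ± 7.32 CPM in EPS and 413 ± 16.5 CPM in controls (-4.74 ± 0.42, adjusted p = 9.68e-05 by edgeR). Among 6 vitamin D genes, 3 rose, 1 fell and 2 did not pass, while 5 rose with unscaled library totals. Gc, which rose and was chosen after its value was seen, had 0, 0 and 2 reads in controls 1 to 3. With 100, 17 and 27 reads in EPS 1 to 3, it cleared the low-count filter through its EPS libraries alone. The receptor gene Vdr averaged 4.25 ± 0.658 CPM in EPS and 0.823 ± 0.547 CPM in controls (2.36 ± 0.54, adjusted p = 0.00597), Pdia3 rose by 0.91 ± 0.12 and Dhcr7, the last step of cholesterol synthesis that uses up the vitamin D precursor, fell by 1.03 ± 0.14.

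Around Cyp7b1 and Cyp27a1, 7 bile acid and oxysterol genes were tested, of which 3 rose, 2 fell and 2 did not pass. Ch25h, the cholesterol 25-hydroxylase whose product Cyp7b1 takes on, and chosen after its value was seen, averaged 1.92 ± 0.696 CPM in EPS and 0.275 ± 0.133 CPM in controls (2.79 ± 0.52, adjusted p = 0.00212 by edgeR). It had 6, 3 and 3 reads in controls 1 to 3 and likewise cleared the low-count filter through its EPS libraries alone. Gpr183, the receptor for the dihydroxylated product of this pair, averaged 26.2 ± 5.95 CPM in EPS and 2.00 ± 0.476 CPM in controls (3.71 ± 0.25, adjusted p = 1.10e-05). The sterol exporter Abcg1 rose by 1.72 ± 0.17 and Amacr, of bile acid side-chain shortening, fell by 1.38 ± 0.18. B cell markers, whose cells express Gpr183, rose beside it as given above, and so did macrophage markers. T cell markers also rose, 4 of 4, with sums of 183 to 360 CPM in EPS and 2.51 to 4.43 CPM in controls. Some T cell markers may have cleared the low-count filter through their EPS libraries alone. The part of any of these cells was not tested.

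Beside the fatty acid P450 genes, 15 epoxide hydrolase and eicosanoid genes were tested, with 6 that rose, 3 that fell and 6 that did not pass. Ephx2, the soluble epoxide hydrolase that acts on the products of epoxygenases such as the Cyp2j enzymes, averaged 53.5 ± 19.0 CPM in EPS and 355 ± 29.7 CPM in controls (-2.73 ± 0.24, adjusted p = 5.61e-05 by edgeR), falling as Cyp2j6 and Cyp2j9 did. On the leukotriene side, where Cyp4f18 degrades leukotriene B4, Alox5ap rose by 2.24 ± 0.19 and, chosen after their values were seen, Alox5 rose by 0.62 ± 0.21 (adjusted p = 0.0346) and Lta4h by 0.58 ± 0.16 (adjusted p = 0.0133). Ltc4s, the leukotriene C4 synthase and likewise chosen after its value was seen, fell by 1.60 ± 0.28 (adjusted p = 0.00145 by edgeR). The Alox5 call was lost without EPS 3 (adjusted p = 0.0845) or without control 1 (0.0928), 2 (0.116) or 3 (0.0692), and the Lta4h call without control 2 (0.0533) or 3 (0.0502). The thromboxane synthase Tbxas1, a P450 enzyme by structure that the symbol rule does not take in, averaged 32.8 ± 1.51 CPM in EPS and 9.88 ± 0.459 CPM in controls (1.73 ± 0.12, adjusted p = 1.39e-05). Ptgis, the prostacyclin synthase and likewise a P450 enzyme, chosen after its value was seen, did not pass (37.2 ± 13.0 CPM in EPS and 39.0 ± 1.41 CPM in controls, adjusted p = 0.823), and its sign changed with unscaled library totals and without EPS 3. Of 12 steroid hormone genes tested, 3 rose, 5 fell and 4 did not pass. Hsd11b2, which rose, had 1, 10 and 6 reads in controls 1 to 3 and cleared the low-count filter through its EPS libraries alone. Sult1e1, which fell, had 1, 5 and 0 reads in EPS 1 to 3 and cleared it through its control libraries alone. Both were chosen after their values were seen. Hsd17b12 fell by 2.45 ± 0.18, Hsd17b4 by 2.15 ± 0.11 and Fdx1, the ferredoxin of mitochondrial P450 enzymes that is also counted among the redox partners, by 1.83 ± 0.23.

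**Figure D5:**
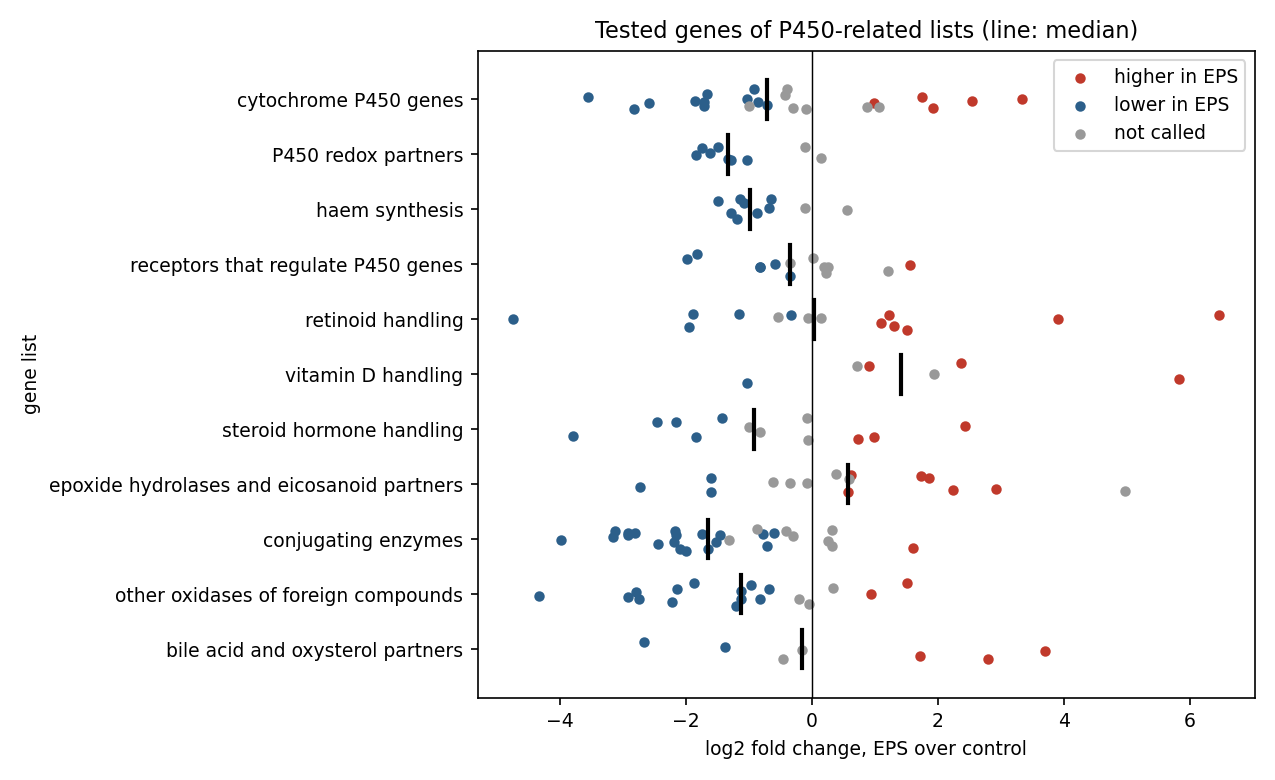
Log2 fold change, EPS over control (horizontal axis), of each tested gene in the P450 genes and 10 lists of related genes (vertical axis), coloured as called higher, called lower or not called, with a line at the list's median. The medians lie at -0.70 for P450 genes, -1.33 for redox partners and -1.65 for conjugating enzymes, and unscaled library totals raise the median of all tested genes by 0.42.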

How the data were processed

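RNA was sequenced from peritoneum in 6 libraries, 3 EPS and 3 control. Per the labels' protocols, RNA was isolated with Trizol and polyadenylated RNA was selected, with no step stated that marks strand. The authors deposited raw read counts per gene symbol, not normalised; the build was mm10, per the submitters' processing notes. For the aligner, the counter, the gene models and the handling of reads that match several genes, versions and settings were not given in the sources used here.

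From these counts, filterByExpr kept 13980 of 14943 symbols (about 0.611 CPM in at least 3 libraries). TMM scaling and edgeR's quasi-likelihood test (edgeR 4.0.16, limma 3.58.1, R 4.3.3), without covariates, compared EPS with control, with Benjamini-Hochberg adjustment over all tested symbols and a threshold of 0.05. The test was first checked on simulated data. The ± of a CPM or RPKM is an SD and that of a log2 fold change a standard error. RPKM used exon lengths, and gene coordinates came from GENCODE M21 (GRCm38). Folds against a group without reads used a floor of 3 reads over that group and leave out the counting error of the other group. Library totals of 15419232 to 17684229 counts set the depth, and intervals cover counting error only.

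The P450 genes and the gene lists were chosen with earlier results of these data known. Values per library are given for called genes with a mean count of at least 50, genes at 10 CPM or more in any library, and every vitamin or steroid hormone gene, and the others by range; from each list up to 3 called genes of lowest adjusted p are named, and genes outside this rule are marked as chosen after their values were seen, as were the single cell type markers and the uncalled list genes named. Alternatives were RLE and upper-quartile factors, unscaled library totals, no filter, DESeq2 1.42.0, limma-voom, a replicate block, controls 1 and 2 averaged, and leaving out each library.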

Additional observations from a re-analysis of the deposited data

How the results depend on the processing

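With all libraries and TMM factors, 4088 genes were called higher and 4245 lower in EPS, 5 and 11 of them P450 genes, and the log2 ratio of summed P450 CPM was -2.12. The 11 P450 genes called lower were called under every alternative except unscaled library totals, and the 5 called higher under every alternative. Cyp8b1, 1 of these 5, cleared the low-count filter of the main fit through its EPS libraries alone. As the alternatives fit the same libraries again, its repeated call adds no support. With unscaled library totals fewer genes were called lower. In that setting 2182 genes were called lower, the summed P450 ratio was -1.69, and Cyp4f13 (adjusted p = 0.291), Cyp4v3 (0.0511) and Cyp27a1 (0.219) were not called. The same setting turned the log2 fold change of Cyp2s1 to 0.0023, Cyp4b1 to 0.16, Cyp20a1 to 0.31 and Ptgis to 0.34. Leaving out each library in turn gave 3459 to 4393 genes higher, 3545 to 4155 lower, 5 to 6 P450 genes higher, 11 to 14 lower and a summed ratio of -2.25 to -2.03. The same removals gave log2 fold changes of -0.36 (without EPS 1) to 1.32 for Cyp39a1, -3.08 (without EPS 1, called lower, adjusted p = 0.0406) to 0.25 (without control 2) for Cyp3a13, -0.018 (without control 3) to 0.065 for Arnt and -0.28 to 0.19 (without EPS 3) for Ptgis. Cyp3a13 was also above 0 without EPS 2 (0.20) or EPS 3 (0.13), and Arnt was at -0.0011 without control 2. Deviations of same-numbered libraries correlated at 0.201, -0.0952 and 0.236, within a span of -0.317 to 0.236 over all pairs of a control with an EPS library. With 3 libraries a group, these values cannot decide whether a shared number marks a pair. A replicate block gave 3947 genes higher and 4166 lower, with the same 5 and 11 P450 genes. With controls 1 and 2 averaged as 1 sample, 6 P450 genes were higher and 11 lower. The causes of these changes were not tested. With 3 libraries a group, genes near 1 CPM, such as Cyp8b1, rest on 25 reads or fewer a library, and a lack of reads there shows only that none were detected at this depth.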
